A study of Homo sapiens with 9 samples.

Results

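The laminin and integrin genes were followed under 3 media in MDA-MB-231, a line derived from a human breast carcinoma. The family was taken as every protein-coding gene whose symbol is that of a laminin alpha, beta or gamma chain or of an integrin alpha or beta subunit, which gave 38 of the 58735 genes in the deposited table. Of these, 37 are described: 11 laminin chains, 18 integrin alpha subunits and 8 integrin beta subunits. The members were set by name, although the family was chosen with earlier results of these data known. Of the 37, 18 passed the filter of a mean of at least 0.5 FPKM over the 9 libraries and were tested, 6 of them laminins, 7 integrin alpha and 5 integrin beta genes. FPKM are fragments scaled to gene length and library size.

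Wild-type MDA-MB-231 cells had been kept in 1 of 3 media, each with 3 libraries. TIS CM had been conditioned by senescent cells of the same line, Cont CM had been conditioned by its non-senescent cells, and No CM was DMEM with serum that no cells had conditioned. Senescence in the TIS CM donors had been induced with nocodazole, a drug that depolymerises microtubules, at 100 ng/ml for 72 h. Exposure to the media lasted 72 h by the sample labels and 48 h by the design text of the series, so its length is uncertain. Nothing in the sources used here states that the numbered replicates came from separate cultures, and the p-values therefore cover the spread among these libraries alone, which may be technical.

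Laminins are secreted trimers of an alpha, a beta and a gamma chain and form the sheet of the basement membrane. Integrins are receptors made of an alpha and a beta subunit that span the cell membrane and couple laminin, collagen, fibronectin and other ligands to the cytoskeleton. In breast epithelium the laminin that holds LAMA3 and LAMB3 anchors cells through the integrin pairs ITGA6 with ITGB4 and ITGA3 with ITGB1.

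The libraries held between 32636708 and 39189036 fragments on genes, so that a single fragment on a 1 kb gene came to between 0.0255 and 0.0303 FPKM. Defining transcripts of the line were present in every library, with VIM between 345 and 401 FPKM and CD44 between 71.4 and 92.7 FPKM, and those of the hormone receptors were near 0, with ESR1 at most 0.00801 FPKM and PGR at most 0.00539 FPKM. Among 9 leukocyte markers, 5 were listed at 0 in all libraries and PTPRC reached at most 0.0277 FPKM, while CD14 lay between 3.14 and 5.17 FPKM. ESR1 and PGR belong to a list of 7 luminal or epithelial genes, whose other members were detected in every library. KRT8 lay between 72.5 and 115 FPKM and KRT18 between 107 and 158 FPKM. ERBB2 lay between 7.92 and 9.59 FPKM, EPCAM between 7.58 and 10.1 FPKM and CDH1 between 0.212 and 1.23 FPKM. The summed level of the 7 lay between 234 and 240 FPKM in TIS CM, between 195 and 246 FPKM in Cont CM and between 266 and 292 FPKM in No CM. The part of this sum in the results was not tested. Both Cont CM replicates 1 and 2 stood apart. In Cont CM replicate 2, a trend with GC content and gene length took up 17.7% of the variance of its genes' log2 deviations from their means, against between 0.639% and 5.77% in the other 8 libraries. It was the highest or lowest of the 9 libraries for 10 of the 18 tested members, and Cont CM replicate 1 for 7 of 18. Over all tested genes those shares were 35.7% and 40.3%, against between 12.9% and 23.4% in the other 7 libraries.

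The 18 tested members spanned a wide range of levels. ITGB1 was the most abundant, with a mean of 303 FPKM in TIS CM, 307 FPKM in Cont CM and 296 FPKM in No CM, followed by LAMB3, ITGA3 and ITGA6. The lowest tested member was ITGB3, with a mean of 0.811 FPKM in TIS CM, 1.19 FPKM in Cont CM and 0.853 FPKM in No CM. LAMA3 and LAMB3, whose products assemble with each other, had very unequal FPKM, LAMB3 having 46.8 ± 3.41 times the FPKM of LAMA3 in TIS CM, 59.3 ± 19.8 times in Cont CM and 38.8 ± 5.17 times in No CM (SD, n = 3). The FPKM took 1 length per gene, 14678 bases for LAMA3 and 4688 bases for LAMB3. Were the LAMA3 transcripts here shorter than that, the ratio would be smaller, which was not tested.

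**Figure D1:**
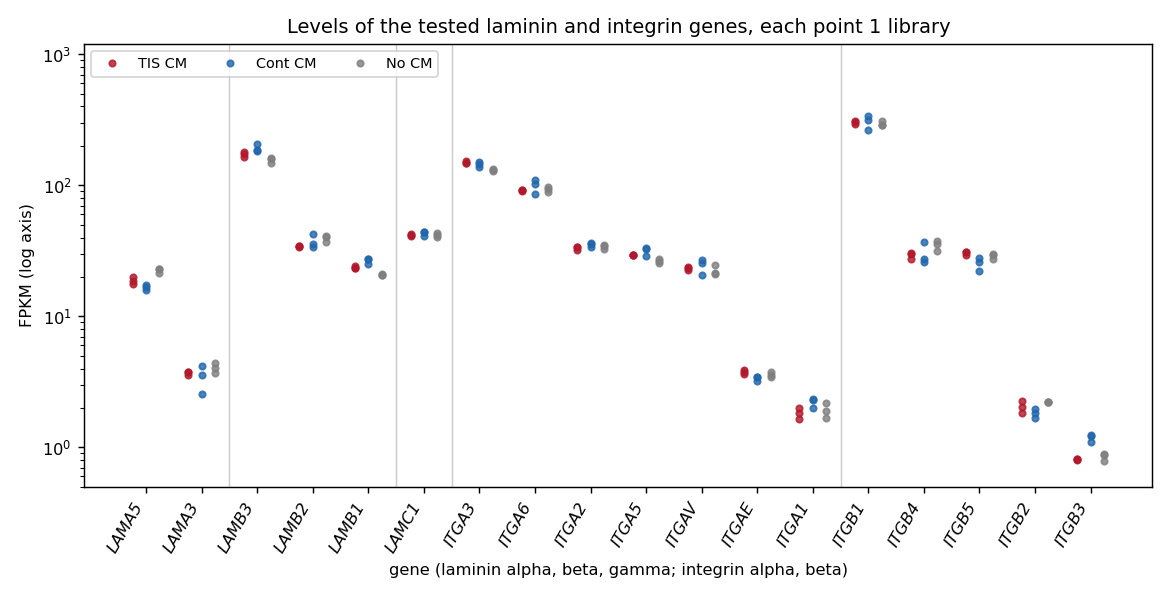
FPKM on a log axis of the 18 tested laminin and integrin genes, ordered by chain type, with 1 point per library and TIS CM, Cont CM and No CM side by side. ITGB1 lies near 303 FPKM and ITGB3 near 0.811 FPKM in TIS CM, and the Cont CM points of ITGB3, between 1.09 and 1.24 FPKM, lie above its other points.

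LAMC1, the gamma 1 chain of most laminins (chromosome 1, 183023460 to 183145592, hg38), had 41.7, 42.5 and 41.2 FPKM in TIS CM, 41.1, 44.1 and 43.8 FPKM in Cont CM, and 43.1, 40.1 and 41.7 FPKM in No CM. The 3 groups overlapped, and none of the 3 comparisons passed, with log2 fold changes of -0.04 for TIS CM minus Cont CM, 0.05 for Cont CM minus No CM and 0.01 for TIS CM minus No CM. LAMC3, another gamma gene, had 2 fragments over all 9 libraries. All 3 comparisons draw on the same 9 libraries and each pair of them shares a group, so they are not independent. Because these are bulk libraries, fewer cells with a transcript and less of it per cell cannot be told apart.

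**Figure D2:**
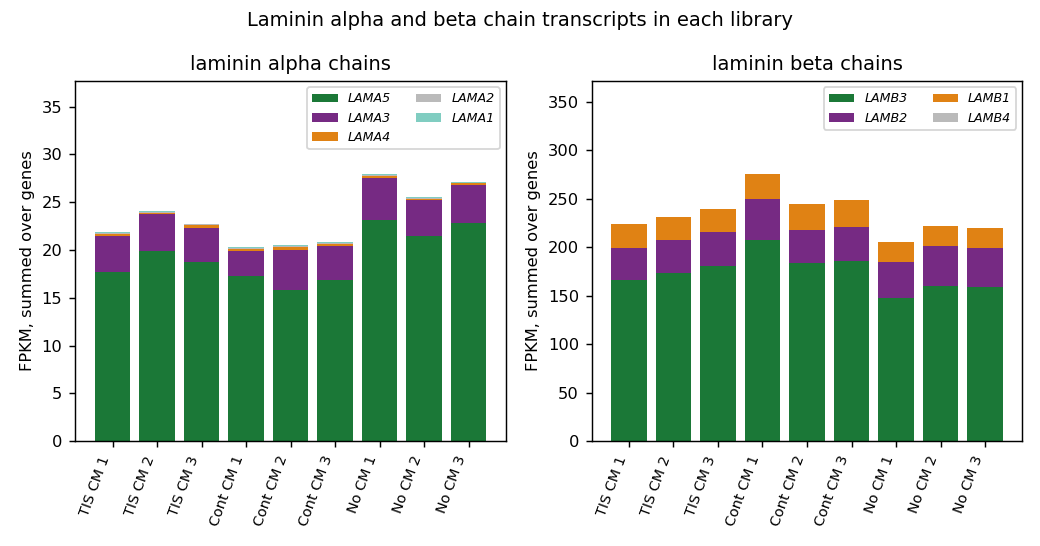
FPKM of the laminin alpha and beta chain genes as bars stacked by gene, 1 bar per library, with TIS CM left of Cont CM and No CM. In the alpha panel the LAMA5 segment lies between 15.8 and 17.3 FPKM in Cont CM, and in the beta panel the LAMB3 segment lies between 184 and 208 FPKM in Cont CM.

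Among the beta chains, LAMB3 and LAMB1 were higher in Cont CM than in No CM, and LAMB2 did not pass. LAMB3, the beta 3 chain of epithelial laminins (chromosome 1, 209614870 to 209652466), had 166, 173 and 181 FPKM in TIS CM, 208, 184 and 185 FPKM in Cont CM, and 148, 160.4 and 159 FPKM in No CM. The 3 groups did not overlap, although the highest TIS CM library lay close to the lowest Cont CM library. It rose 1.23-fold in Cont CM relative to No CM (log2 fold change 0.30, SE 0.06, limma adjusted p = 0.0102). The differences of TIS CM from Cont CM (log2 fold change -0.15, limma adjusted p = 0.175) and from No CM (0.15, limma adjusted p = 0.294) did not pass. LAMB3 made up 74.9% ± 0.832 of the summed beta chain FPKM in TIS CM, 75% ± 0.42 in Cont CM and 72.1% ± 0.183 in No CM (SD, n = 3).

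LAMB1, the beta chain of the widely expressed laminins (chromosome 7, 107923799 to 108003255), had 24.2, 23.6 and 23.4 FPKM in TIS CM, 25.3, 27.4 and 27.4 FPKM in Cont CM, and 20.8, 20.6 and 20.9 FPKM in No CM. No TIS CM library reached a Cont CM library, and no No CM library reached either. It rose 1.28-fold in Cont CM relative to No CM (log2 fold change 0.35, SE 0.04, limma adjusted p = 0.000777) and fell 1.12-fold in TIS CM relative to Cont CM (log2 fold change -0.17, SE 0.04, limma adjusted p = 0.0475). The fall was lost without any library other than Cont CM replicate 1 (limma adjusted p between 0.074 and 0.144 over those 8 omissions). DLD, which overlaps LAMB1 on the opposite strand and averaged 24.5 FPKM, could have shared fragments with it, since no source used here gives the strand setting of the counting. LAMB2, another beta chain, stood at 33.8, 34.3 and 34.6 FPKM in TIS CM, 42.4, 33.9 and 35.8 FPKM in Cont CM, and 36.9, 41.1 and 40.2 FPKM in No CM. Its Cont CM values ran across those of both other groups, with Cont CM replicate 1 the highest of the 9. Its TIS CM libraries all lay below its No CM libraries, but that difference did not pass. Without Cont CM replicate 1, LAMB2 fell in Cont CM relative to No CM (log2 fold change -0.17, limma adjusted p = 0.0412). Its longest transcript is 60.3% GC. Deviations in the Cont CM libraries left fell with GC content (r = -0.41 in replicate 2 and -0.20 in replicate 3). With all libraries, that log2 fold change was -0.080, and 0.0089 with the GC and length trend removed. The part of GC content in the fall was not tested.

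Of the 2 alpha chains tested, LAMA5 was lower in Cont CM than in medium alone and LAMA3 did not pass. LAMA5, the alpha 5 chain (chromosome 20, 62307955 to 62367312), had 17.7, 19.9 and 18.7 FPKM in TIS CM, 17.3, 15.8 and 16.8 FPKM in Cont CM, and 23.1, 21.5 and 22.8 FPKM in No CM. Cont CM was the lowest group and No CM the highest, and the 3 did not overlap. It fell 1.34-fold in Cont CM relative to No CM (log2 fold change -0.42, SE 0.05, limma adjusted p = 0.00162). The difference of TIS CM from Cont CM (log2 fold change 0.17, limma adjusted p = 0.106) and from No CM (-0.25, limma adjusted p = 0.0815) did not pass, the second passing without Cont CM replicate 1 (limma adjusted p = 0.0411). ADRM1 overlaps LAMA5 on the opposite strand at a mean of 104 FPKM, with the same limit as for DLD. LAMA3, the alpha chain that assembles with LAMB3, averaged 3.71 ± 0.117 FPKM in TIS CM, 3.43 ± 0.827 FPKM in Cont CM and 4.05 ± 0.375 FPKM in No CM (SD, n = 3). Its groups overlapped in every comparison and none passed, and its log2 fold change for TIS CM minus Cont CM was 0.12 with all libraries and -0.049 without Cont CM replicate 1. As sums over all chains of a type, the beta chains averaged 231 ± 7.58 FPKM in TIS CM, 256 ± 16.5 FPKM in Cont CM and 216 ± 9.28 FPKM in No CM, and the alpha chains 22.9 ± 1.13 FPKM in TIS CM, 20.6 ± 0.236 FPKM in Cont CM and 26.8 ± 1.21 FPKM in No CM (SD, n = 3).

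The 250 bases before and 20 bases after the annotated starts are shown for 5 genes, from RefSeq's GRCh38.p14 promoter table, because LAMB3, LAMA3 and ITGA5 carry the letters of the AP-1 site TGANTCA there, while LAMB1 and LAMA5, which were called in opposite directions, both carry repeated GC boxes, GGGCGG. Capitals mark the AP-1 letters in the first 3 sequences and the GC boxes, on either strand, in the other 2. The first 3 sequences also hold 1 GC box each, left in lower case. Repeated GC boxes also stood before members called in no comparison, with 4 for ITGA2 and 3 in a window each of ITGA6, ITGB1 and LAMC1. All are written 5′ to 3′ on the strand of the gene.
LAMB3 chr1:209651355-209651624 (minus): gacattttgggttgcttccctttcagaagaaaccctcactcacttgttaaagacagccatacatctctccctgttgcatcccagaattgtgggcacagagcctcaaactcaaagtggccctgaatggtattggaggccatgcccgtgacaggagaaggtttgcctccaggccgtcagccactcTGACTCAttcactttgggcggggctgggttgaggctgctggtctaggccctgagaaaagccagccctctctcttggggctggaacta
LAMA3 chr18:23872770-23873039 (plus): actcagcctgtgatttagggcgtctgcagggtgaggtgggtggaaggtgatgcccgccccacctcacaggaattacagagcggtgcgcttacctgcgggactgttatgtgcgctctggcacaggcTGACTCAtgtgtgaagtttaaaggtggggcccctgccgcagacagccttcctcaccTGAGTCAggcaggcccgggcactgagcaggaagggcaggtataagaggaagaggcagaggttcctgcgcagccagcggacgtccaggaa
ITGA5 chr12:54419247-54419516 (minus): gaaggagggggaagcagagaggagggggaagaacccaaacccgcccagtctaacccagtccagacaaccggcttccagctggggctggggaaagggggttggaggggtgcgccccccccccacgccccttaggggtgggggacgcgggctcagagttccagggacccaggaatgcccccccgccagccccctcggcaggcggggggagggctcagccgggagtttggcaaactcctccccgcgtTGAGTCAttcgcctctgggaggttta
LAMB1 chr7:108003142-108003411 (minus): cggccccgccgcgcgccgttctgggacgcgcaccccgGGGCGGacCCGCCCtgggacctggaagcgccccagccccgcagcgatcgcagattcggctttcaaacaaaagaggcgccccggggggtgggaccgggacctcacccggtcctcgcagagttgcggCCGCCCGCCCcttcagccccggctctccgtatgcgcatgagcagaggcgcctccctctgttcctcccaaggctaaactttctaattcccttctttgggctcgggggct
LAMA5 chr20:62367293-62367562 (minus): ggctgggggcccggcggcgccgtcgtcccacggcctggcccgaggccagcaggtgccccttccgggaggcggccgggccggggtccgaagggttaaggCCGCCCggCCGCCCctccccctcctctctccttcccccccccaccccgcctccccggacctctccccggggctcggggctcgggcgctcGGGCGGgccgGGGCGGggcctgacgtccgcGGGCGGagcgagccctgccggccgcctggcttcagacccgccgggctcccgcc

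The AP-1 letters begin 67 bases before the start in LAMB3, 125 and 69 bases before it in LAMA3 and 6 bases before it in ITGA5. The LAMB3 window belongs to 1 of 3 RefSeq starts of that gene, and the other two hold no match. The starts shown for LAMB3, LAMA3, ITGA5 and LAMB1 lie inside the genes as the deposited table draws them. That of LAMA5 lies at the edge of its gene. RefSeq gave 33 promoter entries for 26 of the 37 members and for 14 of the 18 tested. AP-1 letters on either strand stood in 3 of the 33, against 7.12% of all 35116 promoters of the same length, and a GC box in 18 of the 33, against 43.7%. The TEAD letters GGAATG stood in 4 of the 33, against 12.9%. The AP-1 and TEAD counts lie close to those shares, and LAMA3, with 2 AP-1 matches, was called in no comparison. All are counts of letters in a window and not of bound sites. ITGA3 and ITGB3 have no entry.

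Of the integrin alpha genes, ITGA5 and ITGA3 were higher in Cont CM than in No CM. ITGA5, which pairs with ITGB1 as the main fibronectin receptor (chromosome 12, 54395261 to 54419460), had 29.3, 29.5 and 29.4 FPKM in TIS CM, 28.9, 32.8 and 33.2 FPKM in Cont CM, and 27.2, 25.5 and 26.5 FPKM in No CM. All No CM libraries lay below all others, while Cont CM replicate 1 lay below the TIS CM libraries. It rose 1.19-fold in Cont CM relative to No CM (log2 fold change 0.25, SE 0.05, limma adjusted p = 0.0129). Without Cont CM replicate 1, ITGA5 also fell in TIS CM relative to Cont CM (limma adjusted p = 0.0318) and rose relative to No CM (limma adjusted p = 0.0411).

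ITGA3, a laminin receptor subunit that pairs with ITGB1 (chromosome 17, 50055968 to 50090481), had 148, 149 and 153 FPKM in TIS CM, 138, 145 and 152 FPKM in Cont CM, and 128, 133 and 131 FPKM in No CM. Both conditioned media lay wholly above No CM, and they overlapped each other. The 1.11-fold rise in Cont CM relative to No CM passed narrowly (log2 fold change 0.15, SE 0.04, limma adjusted p = 0.0414). It was lost without any library other than Cont CM replicate 1 (limma adjusted p between 0.0647 and 0.119). The larger log2 fold change of 0.20 in TIS CM relative to No CM missed the threshold (limma adjusted p = 0.0788) and passed without Cont CM replicate 1 (limma adjusted p = 0.0214).

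ITGA6, ITGA2 and ITGAV passed in no comparison. ITGA6, the alpha subunit of the hemidesmosome integrin, had 92.3, 92.8 and 90.6 FPKM in TIS CM, 85.3, 109.9 and 102 FPKM in Cont CM, and 97.5, 88.8 and 93.9 FPKM in No CM. The Cont CM libraries were split to either side of both other groups. Without Cont CM replicate 1, ITGA6 fell in TIS CM relative to Cont CM (limma adjusted p = 0.0439) and rose in Cont CM relative to No CM (limma adjusted p = 0.0337). A transcript antisense to ITGA6, AC078883.2, averaged 19.2 FPKM and could have shared fragments with it. ITGA2, a collagen receptor subunit, had 33.9, 33.8 and 32.3 FPKM in TIS CM, 33.8, 36.6 and 35.6 FPKM in Cont CM, and 35.3, 32.9 and 34.2 FPKM in No CM. ITGAV, shared by receptors for vitronectin and latent TGF-beta, had 24, 23.4 and 22.7 FPKM in TIS CM, 20.8, 26.7 and 25.4 FPKM in Cont CM, and 24.7, 21.4 and 20.9 FPKM in No CM. For both genes the 3 groups overlapped. As log2 fold changes without Cont CM replicate 2, ITGAV turned to 0.025 for TIS CM minus Cont CM and ITGA6 to -0.0027 for Cont CM minus No CM. ITGAE, which pairs with ITGB7 to bind E-cadherin, averaged 3.78 FPKM in TIS CM, 3.39 FPKM in Cont CM and 3.59 FPKM in No CM. ITGA1, another collagen receptor subunit, averaged 1.83 FPKM in TIS CM, 2.22 FPKM in Cont CM and 1.92 FPKM in No CM, and neither gene passed in any comparison. PELO overlaps ITGA1 on the same strand at a mean of 14.8 FPKM and HASPIN overlaps ITGAE on the opposite strand at 13.4 FPKM, so both low values are uncertain.

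Of the integrin beta genes only ITGB3 passed in any comparison, and its level was low. ITGB3, which pairs with ITGAV as a vitronectin receptor (chromosome 17, 47253846 to 47311816), had 0.817, 0.806 and 0.811 FPKM in TIS CM, 1.09, 1.23 and 1.24 FPKM in Cont CM, and 0.794, 0.884 and 0.882 FPKM in No CM. All Cont CM libraries lay above all others, and TIS CM and No CM overlapped. It fell 1.28-fold in TIS CM relative to Cont CM (log2 fold change -0.36, SE 0.08, limma adjusted p = 0.0405) and rose 1.25-fold in Cont CM relative to No CM (log2 fold change 0.32, SE 0.08, limma adjusted p = 0.0276). The fall was lost without any library other than Cont CM replicate 1 (limma adjusted p between 0.0571 and 0.123), and the rise without any of Cont CM replicates 2 and 3 and No CM replicates 1, 2 and 3 (limma adjusted p between 0.0585 and 0.0815). Each value rested on between 126 and 214 fragments, and the pseudocount of 0.5 FPKM makes these folds smaller than the ratio of the means.

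The other beta subunits passed in no comparison. ITGB5, another partner of ITGAV, had 31, 30.9 and 29.3 FPKM in TIS CM, 22.4, 26.2 and 27.9 FPKM in Cont CM, and 29.8, 27.2 and 29.6 FPKM in No CM. Its TIS CM libraries all lay above its Cont CM libraries, with a log2 fold change of 0.25 that missed the threshold (limma adjusted p = 0.0847). ITGB3 over ITGB5, as a ratio of FPKM, was 0.0267 ± 0.000881 in TIS CM, 0.0467 ± 0.00208 in Cont CM and 0.0297 ± 0.00294 in No CM (SD, n = 3). ITGB1, the common partner of the alpha subunits for laminin, collagen and fibronectin, had 311, 304 and 295 FPKM in TIS CM, 266, 336 and 317 FPKM in Cont CM, and 308, 290.1 and 289.5 FPKM in No CM. Its Cont CM libraries included both the lowest and the highest of the 9. The log2 fold change of ITGB1 without Cont CM replicate 2 turned to 0.061 for TIS CM minus Cont CM and to -0.025 for Cont CM minus No CM. ITGB4, which joins ITGA6 in the hemidesmosome, had 27.5, 30.4 and 30.0 FPKM in TIS CM, 37.2, 26 and 27.2 FPKM in Cont CM, and 31.4, 37.6 and 35.7 FPKM in No CM. Its TIS CM libraries all lay below its No CM libraries, but that difference did not pass. Without Cont CM replicate 1, its high library, ITGB4 fell in Cont CM relative to No CM (log2 fold change -0.38, limma adjusted p = 0.0104), and its log2 fold change for TIS CM minus Cont CM turned to 0.14, against -0.024 with all libraries. The longest transcript of ITGB4 is 63.7% GC, and the part of GC content in this fall was not tested either. GALK1 overlaps ITGB4 on the opposite strand at a mean of 8.86 FPKM. ITGB2, the beta subunit of the leukocyte integrins, averaged 2.05 FPKM in TIS CM, 1.82 FPKM in Cont CM and 2.22 FPKM in No CM.

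**Figure D3:**
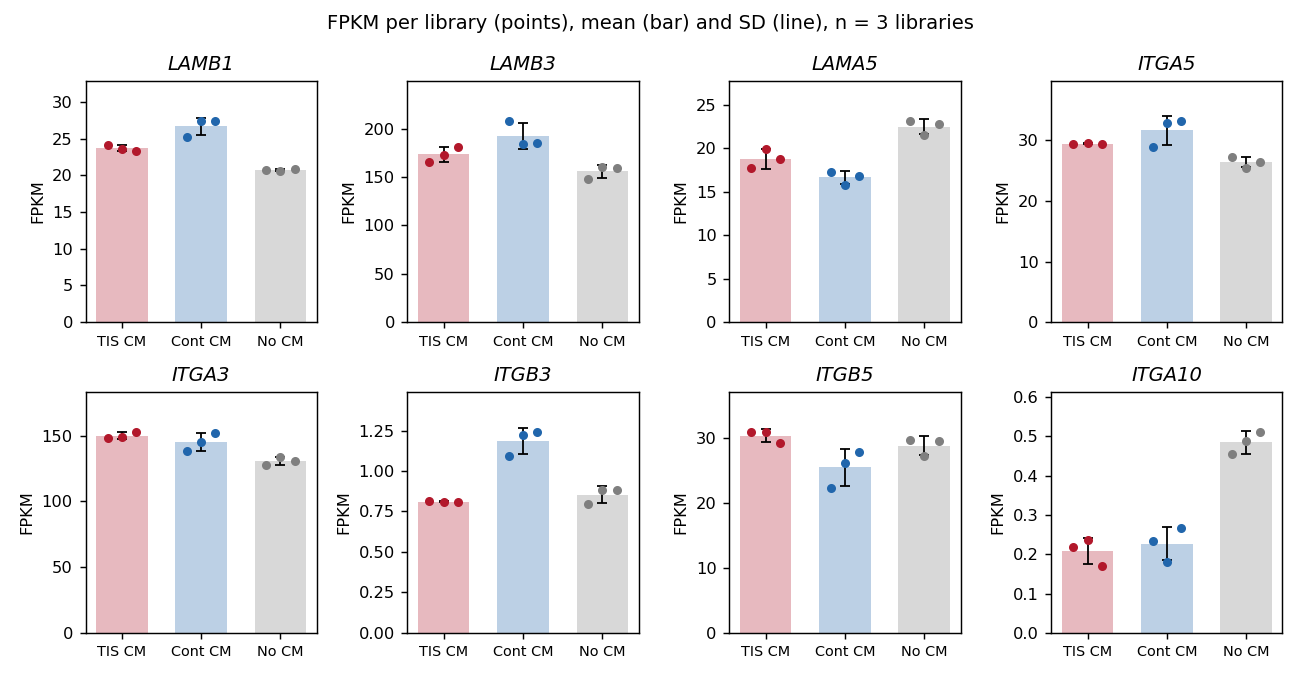
FPKM in each library (points), group mean (bar, from 0) and SD (line, n = 3) for the 6 called members, ITGB5 and ITGA10, with TIS CM left of Cont CM and No CM and a scale of its own in each panel. Cont CM has the highest mean for LAMB1, LAMB3, ITGA5 and ITGB3 and the lowest for LAMA5 and ITGB5, and No CM is the highest for ITGA10.

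Of the 19 members left untested, ITGA10, a collagen receptor subunit, is given by library although it was chosen after its values were seen. ITGA10 had 0.219, 0.236 and 0.171 FPKM in TIS CM, 0.235, 0.181 and 0.266 FPKM in Cont CM, and 0.455, 0.487 and 0.512 FPKM in No CM. Every No CM library lay above every library of either conditioned medium, with between 41 and 111 fragments behind each value. In a limma voom fit to the recovered fragments of all 29649 genes above 0, it was 2.33-fold lower in TIS CM than in No CM (adjusted p = 0.0138) and 2.14-fold lower in Cont CM than there (adjusted p = 0.00475), with no call between the conditioned media (adjusted p = 0.865). On log2(FPKM + 0.5) over the same genes, limma called the difference of Cont CM from No CM (adjusted p = 0.0149) but not that of TIS CM from No CM (adjusted p = 0.0682). LAMA4 and ITGB8 each averaged close to 0.22 FPKM, ITGB6 averaged 0.125 FPKM, and LAMA2, LAMA1, ITGA7, ITGA2B, LAMB4, ITGB7 and ITGA9 averaged between 0.0141 and 0.0913 FPKM. ITGAM, ITGA4, ITGAX, ITGA11, LAMC3 and ITGAL held between 1 and 5 fragments each over the 9 libraries together. ITGA8 and ITGAD held none in any library, where 3 fragments would be 0.0121 FPKM for ITGA8 and 0.0206 FPKM for ITGAD in the shallowest library, counting error only. The alpha partners of ITGB2, namely ITGAL, ITGAM, ITGAX and ITGAD, were thus all at or near 0.

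Counted over the 18 tested members, TIS CM against Cont CM gave 2 lower calls, of LAMB1 and ITGB3, and no higher call. Among all 13912 tested genes limma called 4.48% in either direction, 2.9% higher and 1.57% lower, and among the members 11.1%. Unadjusted p was under 0.05 for 7 of the 18, a count with no share over all tested genes to set it against. Limma voom called 1 member, ITGB5, higher, where it called 1085 of the 13912 tested genes, 625 of them higher. The median log2 fold change of the members was -0.04 against 0.00 over all tested genes. The groups did not overlap for 3 members that were higher in TIS CM, LAMA5, ITGAE and ITGB5, and for 3 that were lower, LAMB1, LAMB3 and ITGB3. Of all tested genes, 28.6% did not overlap, 15% being higher and 13.6% lower. Without any library other than Cont CM replicate 1, 0 of the 2 calls were left, and without Cont CM replicate 1 there were 4. Calls over all tested genes also moved, from 623 to 1084 without Cont CM replicate 1. They numbered between 11 and 448 with any other library left out.

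Cont CM against No CM gave the most member calls. LAMB1, LAMB3, ITGA5, ITGB3 and ITGA3 were called higher and LAMA5 lower, which is 33.3% of the 18, where limma called 16.3% of all tested genes, 7.77% higher and 8.56% lower. The median log2 fold change of the members was 0.05 against 0.00 over all tested genes, and the median size of a difference was 0.17 against 0.11. The groups did not overlap for the 5 members called higher and for 2 lower members, LAMA5 and ITGB2, and for 16.6% (higher) and 16.8% (lower) of all tested genes. Laminins accounted for 2 higher calls and the lower one among 6 tested, and integrins for 3 higher calls among 12 tested. Members called higher numbered 3 without any of Cont CM replicates 2 and 3 and No CM replicates 1, 2 and 3. Higher calls over all tested genes went from 1081 to between 492 and 789 in these omissions. The number of members called lower was 3 without Cont CM replicate 1, with LAMB2 and ITGB4 added. Lower calls over all tested genes went from 1191 to 1438 there.

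TIS CM against No CM gave 0 member calls among the 18, where limma called 0.855% of all tested genes, 0.403% higher and 0.453% lower. Unadjusted p was under 0.05 for 6 of the 18, again with no share over all tested genes to set it against. Limma voom called LAMB1 and ITGA3 higher and LAMA5 lower, where it called 245 of the 13912 tested genes, 105 higher and 140 lower. The groups did not overlap for 4 higher members, LAMB1, LAMB3, ITGA5 and ITGA3, and for 3 lower ones, LAMA5, LAMB2 and ITGB4, and for 12.7% (higher) and 11.6% (lower) of all tested genes. The median log2 fold change of the members was -0.01 against 0.00 over all tested genes. Without Cont CM replicate 1, limma called LAMB1, ITGA3 and ITGA5 higher and LAMA5 lower, where it called 365 of the 13912 tested genes, 195 higher and 170 lower. That library is in neither group compared, so the log2 fold changes were those of the full fit. Only the spread estimated over all libraries differed.

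**Figure D4:**
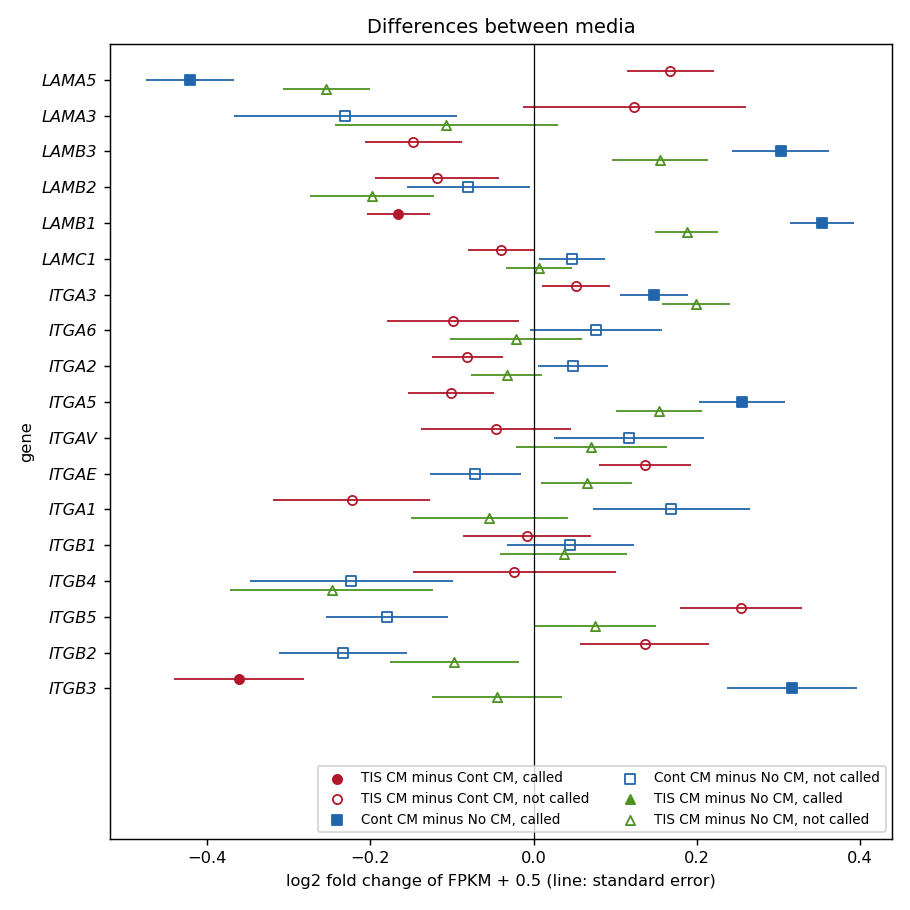
Log2 fold change on log2(FPKM + 0.5) with its standard error for each tested member in the 3 comparisons, with filled symbols for genes called at an adjusted p under 0.05. ITGB3 lies at -0.36 for TIS CM minus Cont CM and at 0.32 for Cont CM minus No CM, and LAMA5 at -0.42 for Cont CM minus No CM.

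Genes that work with laminins and integrins were set beside them as 4 lists, which were also chosen with earlier results of these data known. The hemidesmosome and tetraspanin list, all 10 of whose genes were tested, held 2 lower calls in TIS CM relative to Cont CM, 20% of the list, where 4.48% of all tested genes were called in either direction. Both were hemidesmosome genes. PLEC, another hemidesmosome gene of the list, was not called, at 0.01 for TIS CM minus Cont CM and -0.18 for Cont CM minus No CM as log2 fold changes. The hemidesmosome integrin genes ITGA6 and ITGB4 were called in no comparison with all libraries either. COL17A1, the transmembrane collagen of that junction, had 4.78, 4.92 and 4.94 FPKM in TIS CM, 6.28, 7.69 and 6.94 FPKM in Cont CM, and 5.08, 4.14 and 4.59 FPKM in No CM. Its Cont CM libraries lay above all others, as for ITGB3. It fell 1.39-fold in TIS CM relative to Cont CM (log2 fold change -0.47, limma adjusted p = 0.0217) and rose 1.46-fold in Cont CM relative to No CM (log2 fold change 0.55, limma adjusted p = 0.00309). DST, which links integrins to intermediate filaments, averaged 9.94 ± 0.669 FPKM in TIS CM, 13.2 ± 1.76 FPKM in Cont CM and 9.21 ± 0.632 FPKM in No CM (SD, n = 3), and fell in TIS CM relative to Cont CM (limma adjusted p = 0.0492) and rose in Cont CM relative to No CM (limma adjusted p = 0.0083). The tetraspanins CD82 and TSPAN4 fell in Cont CM relative to No CM, by 1.38-fold and 1.27-fold. The 4 calls between Cont CM and No CM were 40% of the list, where 16.3% of all tested genes were called. The 2 calls between TIS CM and Cont CM were both lost without any TIS CM library or Cont CM replicate 2, and 1 of them without any No CM library. The limma adjusted p without Cont CM replicate 2 was 0.0626 for COL17A1 and 0.093 for DST. Those of CD82 and TSPAN4 were both lost without any TIS CM or No CM library or Cont CM replicate 2, without which the limma adjusted p was 0.0585 for CD82 and 0.0958 for TSPAN4. The median log2 fold change of the list was 0.08 for TIS CM minus Cont CM, -0.08 for Cont CM minus No CM and 0.05 for TIS CM minus No CM. Of the 10 genes, limma called 0 between TIS CM and No CM, where it called 0.855% of all tested genes, and limma voom called none. Unadjusted p was under 0.05 for 2 of the 10, with no share over all tested genes to set it against.

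Of 16 tested basement membrane genes outside the laminins, with their receptors outside the integrins, 3 were higher and none lower in TIS CM relative to Cont CM, none higher and 7 lower in Cont CM relative to No CM, and none higher and 2 lower in TIS CM relative to No CM. The genes called were 18.8%, 43.8% and 12.5% of the 16 in these comparisons, where 4.48%, 16.3% and 0.855% of all tested genes were called. The list holds 28 genes, of which those not tested fell below the filter. The median log2 fold change was 0.13 for TIS CM minus Cont CM, -0.20 for Cont CM minus No CM and -0.07 for TIS CM minus No CM. The 3 higher calls in TIS CM relative to Cont CM numbered 0 without TIS CM replicate 1 or 2, 1 without Cont CM replicate 2 (limma adjusted p = 0.0606 for TINAGL1 and 0.0879 for DAG1) and 5 without Cont CM replicate 1, and the 2 lower calls relative to No CM were both lost without any TIS CM or No CM library. COL18A1, a basement membrane collagen, averaged 23.4 ± 0.457 FPKM in TIS CM, 18.5 ± 0.809 FPKM in Cont CM and 27.8 ± 0.475 FPKM in No CM (SD, n = 3), and passed for TIS CM minus Cont CM (limma adjusted p = 0.00775), Cont CM minus No CM (limma adjusted p = 9.08e-05) and TIS CM minus No CM (limma adjusted p = 0.0345). DAG1, the dystroglycan gene, whose product binds laminin, averaged 63.3 ± 1.95 FPKM in TIS CM, 52.9 ± 4.21 FPKM in Cont CM and 70.3 ± 0.187 FPKM in No CM, rising 1.2-fold in TIS CM relative to Cont CM and falling 1.33-fold in Cont CM relative to No CM. TINAGL1, a matrix protein of basement membranes, rose 1.25-fold in TIS CM relative to Cont CM. The syndecan gene SDC3 fell 1.27-fold in Cont CM and 1.22-fold in TIS CM relative to No CM.

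Among 26 tested of 39 listed integrin ligands, 3 were higher and 1 lower in TIS CM relative to Cont CM, 6 higher and 7 lower in Cont CM relative to No CM, and none higher and 2 lower in TIS CM relative to No CM. The genes called were 15.4%, 50% and 7.69% of the 26 in these comparisons, where 4.48%, 16.3% and 0.855% of all tested genes were called. The median log2 fold change was 0.03 for TIS CM minus Cont CM, 0.03 for Cont CM minus No CM and 0.07 for TIS CM minus No CM. TNC, tenascin C, had 19, 19.6 and 20.2 FPKM in TIS CM, 25.2, 25.4 and 23.9 FPKM in Cont CM, and 17, 18.9 and 18.1 FPKM in No CM. All its TIS CM libraries lay between the other two groups, and it fell 1.26-fold in TIS CM relative to Cont CM (limma adjusted p = 0.0122) and rose 1.37-fold in Cont CM relative to No CM (limma adjusted p = 0.000519). CYR61 and CTGF, matricellular ligands, rose 1.40-fold and 1.25-fold in Cont CM relative to No CM. The collagen genes COL6A1 and COL1A2 rose 1.2-fold and 1.34-fold in TIS CM relative to Cont CM and fell 1.48-fold and 1.82-fold in Cont CM relative to No CM. ADAM15 rose 1.17-fold in TIS CM relative to Cont CM. CDH1, E-cadherin and the ligand of ITGAE with ITGB7, had 0.389, 0.511 and 0.414 FPKM in TIS CM, 0.388, 0.212 and 0.297 FPKM in Cont CM, and 1.23, 1.12 and 1.16 FPKM in No CM. All its No CM libraries lay above all others. It passed the filter only through No CM, so that its calls as lower in both conditioned media, counted above, are not support for a difference. The 3 higher calls in TIS CM relative to Cont CM were lost without any TIS CM library or Cont CM replicate 2 (limma adjusted p between 0.0788 and 0.0857 without that replicate), and 1 was left without No CM replicate 1 or 2. TNC as lower was lost without TIS CM replicate 1 or 2, and 3 ligands were lower without Cont CM replicate 1. Those higher in Cont CM relative to No CM numbered 3 without Cont CM replicate 3, No CM replicate 2 or No CM replicate 3. The 2 lower calls in TIS CM relative to No CM were lost without any TIS CM or No CM library and became 4 without Cont CM replicate 1.

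Of 34 tested among 38 listed genes for adaptors and kinases inside integrin adhesions, 1 was higher and 1 lower in TIS CM relative to Cont CM, 7 higher and 5 lower in Cont CM relative to No CM, and none higher and 1 lower in TIS CM relative to No CM, with a median log2 fold change of -0.03 for TIS CM minus Cont CM, 0.04 for Cont CM minus No CM and 0.00 for TIS CM minus No CM. The genes called were 5.88%, 35.3% and 2.94% of the 34 in these comparisons, the first close to the 4.48% of all tested genes, against 16.3% and 0.855% of all tested genes for the second and the third. PTK2, focal adhesion kinase, fell 1.14-fold and its substrate BCAR1 rose 1.17-fold in TIS CM relative to Cont CM (limma adjusted p = 0.0285 for PTK2 and 0.0326 for BCAR1). In Cont CM relative to No CM, APBB1IP, an adaptor that carries RAP1 to talin, rose 1.5-fold, the actin crosslinker gene ACTN1 rose 1.15-fold and FERMT1, an integrin activator, rose 1.25-fold, while the tensin genes TNS3 and TNS2 fell 1.49-fold and 1.5-fold and BCAR1 fell 1.24-fold. TNS3 also fell 1.34-fold in TIS CM relative to No CM (limma adjusted p = 0.0236), a call lost without any TIS CM or No CM library. The call of BCAR1 between TIS CM and Cont CM was lost without any library other than Cont CM replicate 1, where 3 genes were higher, and that of PTK2 without any TIS CM library or Cont CM replicate 2 or 3. The limma adjusted p without Cont CM replicate 2 was 0.0926 for BCAR1 and 0.078 for PTK2. Those higher in Cont CM relative to No CM numbered between 2 and 5 over the 9 omissions, the lowest without No CM replicate 3. Over the 4 lists, each of the 11 calls between TIS CM and Cont CM and each of the 5 between TIS CM and No CM was lost when at least 1 library was left out, while 23 of the 36 between Cont CM and No CM were kept in all 9 omissions, and none turned direction. The 5, the 36 and the 23 each include CDH1, which passed the filter only through No CM and is not support. Calls over all tested genes also moved with a library left out. They went from 623 to between 11 and 1084 for TIS CM minus Cont CM. For Cont CM minus No CM they went from 2272 to between 1075 and 2770, and for TIS CM minus No CM from 119 to between 9 and 365.

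**Figure D5:**
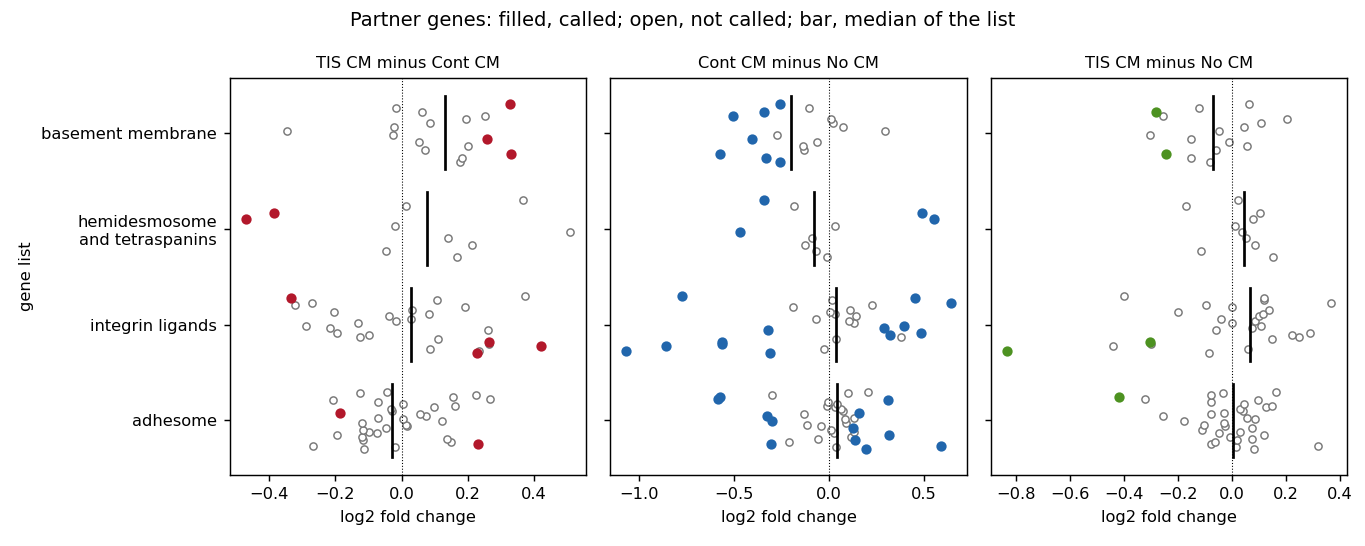
Log2 fold change on log2(FPKM + 0.5), 1 point per tested gene, for the 4 partner lists in the 3 comparisons, filled where called by limma at an adjusted p under 0.05, with a bar at each list's median. The basement membrane list has its median at -0.20 for Cont CM minus No CM and at 0.13 for TIS CM minus Cont CM.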

How the data were processed

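The authors deposited FPKM per gene for 9 libraries, fragments scaled to gene length and library size, and no other per-sample file was used. Messenger RNA was selected on poly-T beads and primed with random hexamers, per the labels' protocols. Per the submitters' processing notes, the tools were fastp, HISAT2 2.0.5, featureCounts 1.5.0-p3 and DESeq2 1.20.0 on hg38, with no roles or strand setting given. Gene IDs matched GENCODE 29 (Ensembl 94).

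FPKM times length was a whole multiple of 1 step per library for 100% of values, within 0.01, which gave the fragment counts used for depth and for voom. Genes with a mean of at least 0.5 FPKM were tested on log2(FPKM + 0.5), a scale that understates changes of low genes, with limma 3.58.1 (R 4.3.3, trended moderated variances, all 9 libraries, group means) and Benjamini-Hochberg adjustment over 13912 genes in each of 3 comparisons. Calls were made below an adjusted p of 0.05. The procedure was tested on simulated data. Intervals of a count of 0 used 3 fragments.

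The members and partner lists were chosen with earlier results of these data known. Of the 38 members by the rule, 1 is not reported here, and counts of members leave it out, while it stayed in the fits. Members called or averaging at least 10 FPKM in a group are given by library, and up to 3 called partner genes per list and direction are named by adjusted p. Promoters came from RefSeq GRCh38.p14. Alternatives were other pseudocounts, filters, scalings, voom, a fit of the 2 groups compared, a replicate block, each library left out and, added after seeing the data, removal of the GC and length trend.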

Additional observations from a re-analysis of the deposited data

How the results depend on the processing

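Over 20 alternatives (19 for ITGB3), 4 of the 8 member calls kept their side of the threshold in each: LAMB1, LAMB3, ITGA5 and LAMA5 for Cont CM minus No CM. None of the 8 turned direction. For TIS CM minus Cont CM, members called lower numbered 2, but 1 with a minimum mean of 1 FPKM, which leaves ITGB3 out, 0 with no filter, with only the 2 groups compared, with the replicate block and with the GC and length trend removed, and between 0 and 4 with a library left out, and members called higher numbered 1 with protein-coding genes only and with voom, against 0. For Cont CM minus No CM, members called higher numbered 3 with no filter, with only the 2 groups compared and with the replicate block, against 5, and between 3 and 6 with a library left out, and members called lower numbered 2 with no filter, protein-coding genes only or voom, against 1, and between 1 and 3 with a library left out. For TIS CM minus No CM, where none was called, members called higher numbered 1 with the GC and length trend removed, 2 with protein-coding genes only, voom or only the 2 groups compared, and between 0 and 3 with a library left out, and members called lower numbered 1 with protein-coding genes only and with voom, and between 0 and 1 with a library left out. The cause of the other moves was not tested. Deviations of same-numbered libraries from their group means had r between -0.19 and 0.08. With 3 libraries per group, these values cannot show whether the libraries were paired. With the replicate block ITGB3 had a limma adjusted p of 0.0944 for TIS CM minus Cont CM. Directions that turned were all of members not called. With the GC and length trend removed these were ITGB1 at 0.058, ITGA3 at -0.015 and ITGAV at 0.029 for TIS CM minus Cont CM, and ITGB1 at -0.025, LAMB2 at 0.0089 and ITGA2 at -0.021 for Cont CM minus No CM. With quantile normalization they were ITGA3 at -0.031 for TIS CM minus Cont CM and LAMC1 at -0.0052 for TIS CM minus No CM, and with equal library sums ITGB1 at -0.011 and LAMC1 at -0.041 for TIS CM minus No CM. With a library left out, ITGB1 lay between -0.11 and 0.061, ITGB4 between -0.12 and 0.14, ITGAV between -0.15 and 0.025 and LAMA3 between -0.049 and 0.26 for TIS CM minus Cont CM, ITGB1 between -0.025 and 0.14 and ITGA6 between -0.0027 and 0.18 for Cont CM minus No CM, and ITGA6 between -0.058 and 0.0096, LAMC1 between -0.020 and 0.030 and ITGA1 between -0.13 and 0.021 for TIS CM minus No CM. Over all genes the calls for TIS CM minus Cont CM numbered 623, 64.8% higher, against 679, 41.8% higher, with equal library sums and 583, 53.2% higher, with quantile normalization, and between 11 and 1084 with a library left out. They numbered 207 with no filter, 33 with only the 2 groups compared, 126 with the replicate block, 147 with the GC and length trend removed, 995 with protein-coding genes only and 1085 with voom. For Cont CM minus No CM they numbered 2272, against 1242 with only the 2 groups compared, 1461 with the replicate block and between 1075 and 2770 with a library left out. For TIS CM minus No CM they numbered 119, 47.1% higher, against 134, 20.9% higher, with equal library sums, 46 with no filter, 331 with only the 2 groups compared, 4 with the replicate block, 210 with protein-coding genes only, 245 with voom and between 9 and 365 with a library left out. A test of the recovered fragments with edgeR or DESeq2 was not run. The values of ITGB3 and of the members below the filter rest on few fragments.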
